A study of Mus musculus with 4 samples.

Results

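The cytosolic HSP70 and HSP110 family was examined in NIH-3T3:Per2-Luc, an established line of mouse fibroblasts that carries luciferase under the Per2 promoter. The members were the 9 genes Hspa1a, Hspa1b, Hspa1l, Hspa2, Hspa4, Hspa4l, Hspa8, Hspa14 and Hsph1, and every non-control probe that carried 1 of these names on the array was taken. This gave 13 probes for 8 of the 9 genes, among 39429 probes and 30175 gene names. No probe was named Hspa1b, but the Hspa1a probe also lists the Hspa1b transcript, so that these 2 genes could not be told apart. Labeled cRNA from total RNA was hybridized to 4 single-color arrays on 1 slide, with 1 array per group. The control array held RNA of cells given fresh medium without H2O2 (0 mM), which its label places at 4 h. The other 3 arrays held RNA taken 4 h, 20 h and 32 h after a pulse of 5 mM H2O2 for 10 min (critical oxidative stress, cOS-pulse). All groups shared the same cell line and the same reporter, and untreated cells at 20 h or 32 h were not analysed here. The 3 comparisons with the control therefore rest on the same array, and time in culture cannot be told apart from time after the pulse.

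HSP70 proteins are ATP-driven chaperones that hold exposed hydrophobic stretches of unfolded or newly made proteins. J-domain proteins (HSP40) bring them clients and speed ATP hydrolysis, and nucleotide exchange factors, among them the larger HSP110 proteins, release ADP so that the client is let go. In stressed cells HSF1 binds heat shock elements, alternating GAA and TTC blocks, in the promoters of the inducible members. Oxidants damage cytosolic proteins, and the family belongs to the heat shock response that the study set beside the circadian response to H2O2.

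The probe sequences were compared with each other and not with the transcripts of the other members. Whether a probe also takes up RNA of a related member was therefore not tested. The Hspa1a probe lay at chr17:35107117-35107176 on the minus strand of mm9, and the Hspa1l probe at chr17:35115629-35115688 on the plus strand. They are printed because these neighboring genes encode closely related proteins, and capitals in the Hspa1l probe mark bases equal to the Hspa1a probe in the best ungapped alignment.
Hspa1a A_55_P2068459: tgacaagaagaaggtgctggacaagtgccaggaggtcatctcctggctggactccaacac
Hspa1l A_51_P340747: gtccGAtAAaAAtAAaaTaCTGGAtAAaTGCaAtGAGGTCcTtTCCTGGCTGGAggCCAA
The 2 probes were equal at 42 of 57 aligned bases (73.7%), with a longest shared run of 11 bases. Over alignments of at least 40 bases, any other pair of probes of different members was equal at 50% of bases or fewer, and shorter overlaps were not compared. Outside the family, no probe on the array shared a run of 30 bases with a family probe.

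Hspa8 and Hspa4 had 3 probes each, Hsph1 had 2, and the other 5 genes had 1. The Hspa4 probe on which the largest ratio rests, A_55_P2054157, lay at chr11:53075085-53075144 on the minus strand of mm9. It is shown to place it on the transcript. Its leading 28 bases, at chr11:53075117-53075144, hold 9 whole codons in 1 frame, and the next 3 bases spell the stop codon tga.
Hspa4 A_55_P2054157, leading bases: caagaagcttcctgagatggacattgat
The other Hspa4 probes, A_55_P2061025 at chr11:53073594-53073653 and A_51_P200477 at chr11:53073347-53073406, lay 1491 and 1738 bases further downstream on the genome. Of the Hspa8 probes, A_52_P12877 (chr9:40611142-40611201, plus strand) and A_55_P2069721 (chr9:40612755-40613050, which spans 296 genomic bases for a 60-base probe) each had an open frame over their length. They are printed because the order of the Hspa8 ratios along the gene is described below with the most downstream probe, A_55_P2080603 at chr9:40613223-40613282.
Hspa8 A_52_P12877: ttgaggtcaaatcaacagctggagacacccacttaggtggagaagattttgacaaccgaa
Hspa8 A_55_P2069721: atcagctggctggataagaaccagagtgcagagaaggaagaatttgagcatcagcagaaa

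A signal is given here as the scaled log2 signal, which is the log2 of the deposited intensity minus the 75th percentile of all probes of that array. A ratio is a difference of 2 such signals. The error is that of the scanner software for the spots, about 0.14 for a signal and 0.20 for a ratio on the log2 scale, and it does not contain the spread between cultures. It was nearly the same for most family probes, so that beyond or within the spot error is in effect a cutoff of about 0.20. Each family probe had 1 spot per array. With 1 array per group there was no replicate and therefore no test. A probe was counted as higher or lower when its ratio was at least 2-fold, and a smaller ratio is described as beyond or within the spot error. Signals are compared between arrays for the same probe and not between probes or genes.

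On the 4 arrays, 52.7% to 59.1% of all probes were well above background, and 19697 were so on all 4 arrays. No spot was saturated. The scaling matters at 4 h, because the 75th percentile of that array lay 0.28 below the control while its spike-in probes lay 0.12 above (log2). With the scaling used, 51.1% of the probes past 2-fold at 4 h were higher, against 16.9% to 38.3% with 5 other scalings, which lower the median of all probes by 0.12 to 0.40. The same share was 47.0% for 20 h over 4 h, against 56.7% to 88.4%, 27.7% for 20 h over control, against 25.7% to 75.2%, 40.5% for 32 h over control, against 38.9% to 63.0%, and 36.7% for 20 h over 32 h, against 36.1% to 52.2%. The ratios of the family are therefore given with their range over the 6 scalings where this matters. All 8 fibroblast marker genes had a probe well above background on all arrays. So did 1 of 4 epithelial, 2 of 3 leukocyte, 1 of 2 endothelial, 0 of 3 skeletal muscle and 3 of 6 testis germ cell genes, while Epcam, Cdh1, Krt18, Ptprc, Myod1, Myog, Des and Ddx4 were on no array. The summed scaled signals of the 9 fibroblast probes were 908, 864, 809 and 850 from the control to 32 h, and those of the leukocyte list were 20.9, 32.2, 11.3 and 11.7. The epithelial list had 0.642, 1.40, 0.806 and 0.766, the endothelial list 0.141, 0.346, 0.179 and 0.132, and the muscle list 0.033, 0.026, 0.027 and 0.032. The leukocyte, epithelial and endothelial sums were highest at 4 h, and their part in the family ratios was not tested. In bulk RNA, fewer cells that express a gene and less of its RNA per cell cannot be told apart.

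At 4 h after the cOS-pulse, the members did not move as 1 block. Under all 6 scalings, the 4 h ratios of the 3 Hspa8 probes, of Hspa1a and of Hspa4 A_55_P2054157 were above 0. Those of Hspa14, Hspa2 and Hspa4l were below 0. Except for quantile normalization, the other scalings lower every 4 h ratio by a constant. A ratio below 0 with the scaling used could therefore not turn under them. The ratios of both Hsph1 probes and of the other Hspa4 probes changed sign among the 6 scalings. With the scaling used, of the 12 probes (7 genes) well above background on all arrays, 8 lay above the control beyond the spot error, 2 lay below it, and 2 were within it. The share of all such probes beyond their spot error was not counted, so these counts do not set the family apart. The 5th to 95th percentile of all such probes ran from -1.23 to 1.22. At least 2-fold higher was 1 probe, Hspa4 A_55_P2054157, where 8.42% of the 19697 probes well above background on all arrays passed the same threshold. At least 2-fold lower was none, against 8.07% of all such probes. The family median was 0.32 and that of all such probes 0.17 (log2). With the 5 other scalings the family median ran from -0.086 to 0.19, so its sign was not settled.

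**Figure D1:**
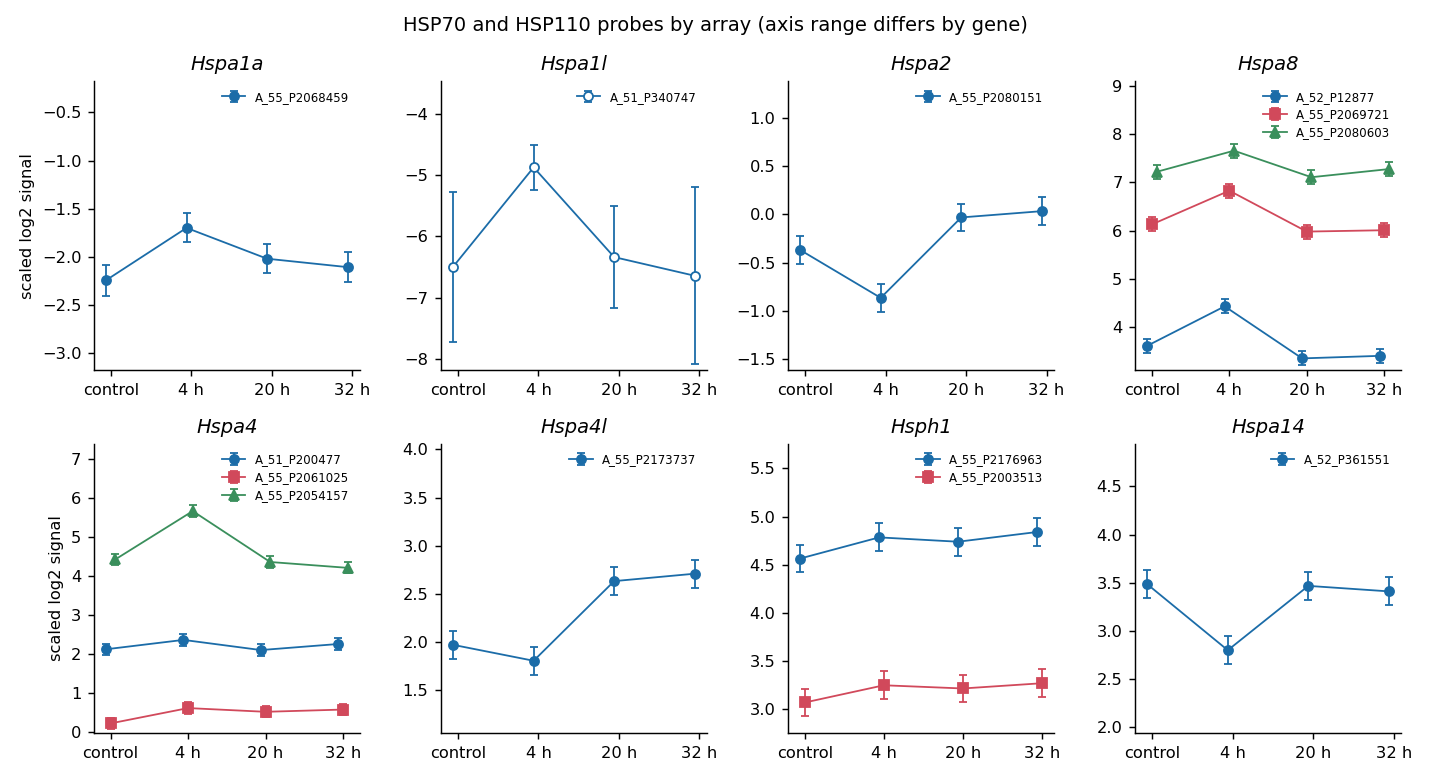
Scaled log2 signal (vertical axis, with a range of its own per gene) of each probe of the 8 genes on the 4 arrays (horizontal axis). Bars are the scanner spot error, open symbols mark a probe not well above background, and a line joins the arrays of 1 probe. With the scaling used, the 3 Hspa8 probes, the Hspa4 probes, Hspa1a and Hspa1l are highest at 4 h. Hspa14, Hspa2 and Hspa4l are lowest there, and Hspa4l is higher at 20 h and 32 h. For the downstream Hspa4 probes and Hspa4l, the gap between 4 h and the nearest array is within the spot error.

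Hspa8 encodes Hsc70, the constitutive HSP70 of the cytosol, which also uncoats clathrin vesicles. Probe A_52_P12877 had scaled log2 signals of 3.62 in the control, 4.44 at 4 h, 3.36 at 20 h and 3.41 at 32 h. Probe A_55_P2069721 had 6.13, 6.83, 5.98 and 6.01 in the same order. Probe A_55_P2080603 had 7.22, 7.65, 7.11 and 7.27. With the scaling used, all 3 probes were highest at 4 h, with a gap to the next array beyond the spot error. For A_55_P2080603 this order turned with the scaling, since 20 h over 4 h was 0.039 with quantile normalization, 0.055 with spike-in scaling and 0.065 without scaling, and its deposited intensities were 183512 at 4 h against 191933 at 20 h and 193815 at 32 h. The 4 h ratios were 0.81, 0.70 and 0.44 on the log2 scale (each ± 0.20), that is 1.76-fold, 1.62-fold and 1.35-fold, in the order of the probes from upstream to downstream. The outer pair, 2081 bases apart, differed by 0.38 ± 0.29, and neighboring probes did not differ beyond their error. The control signals rise in the same order, so position on the gene and brightness of the probe cannot be told apart. All 3 ratios stayed above 0 under the 6 scalings, with ranges of 0.41 to 0.81, 0.26 to 0.70 and 0.018 to 0.44, the last being within the spot error at its low end. By 20 h the ratios to the control were -0.26, -0.15 and -0.11, and by 32 h they were -0.21, -0.12 and 0.057. Of these, those of A_52_P12877 were beyond the spot error. At 20 h its sign was not settled either, since its ratio was 0.071 without scaling.

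The Hspa1a probe, which also lists Hspa1b, stands for the stress-inducible HSP70 pair. Its deposited intensities were 234 in the control, 281 at 4 h, 344 at 20 h and 291 at 32 h. The scaled log2 signals were -2.24, -1.70, -2.02 and -2.11, so that the 4 h array was highest and the control lowest with the scaling used. With median scaling, spike-in scaling or none, 20 h lay above 4 h, by 0.15, 0.28 and 0.29 on the log2 scale. The 4 h ratio was 0.54 ± 0.22 (1.46-fold), and 76.6% of all probes well above background on all arrays had this ratio or a lower one. Over the 6 scalings it ran from 0.14 to 0.54, with its low end inside the spot error. At 20 h the ratio was 0.22 ± 0.22 (1.17-fold) and at 32 h it was 0.14 ± 0.22, within the error. The ratio for the inducible pair was thus under 2-fold at each hour, and it was barely beyond the spot error at 20 h and within it at 32 h.

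Hspa1l encodes an HSP70 known mainly from testis. Its intensities were 12.3 in the control, 31.0 at 4 h, 17.2 at 20 h and 12.5 at 32 h, and no array had this probe well above background. The corresponding scaled log2 signals were -6.50 ± 1.22, -4.88 ± 0.36, -6.34 ± 0.84 and -6.64 ± 1.44. The highest value was at 4 h, but the lowest signal counted as well above background on that array was -4.94, a limit set by other spots with other local backgrounds. No ratio is given for Hspa1l, since neither array of any comparison was well above background.

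Hspa2, needed for meiosis in spermatocytes and also present at low level in other cells, had the opposite order. Its scaled log2 signals were -0.37 in the control, -0.87 at 4 h, -0.032 at 20 h and 0.033 at 32 h. The 4 h array was lowest, the control was in between, and the 20 h and 32 h arrays did not differ from each other beyond the spot error. The ratios to the control were -0.50 ± 0.21 at 4 h (1.41-fold lower), 0.34 ± 0.20 at 20 h and 0.40 ± 0.20 at 32 h. These signs held under all 6 scalings, with ranges of -0.90 to -0.50, 0.32 to 0.67 and 0.39 to 0.58. The other scalings by a constant lower the 4 h ratio and mostly raise the later ones, so the signs had little room to turn. On the testis germ cell list 3 of 6 genes had a probe well above background on all arrays and Ddx4 was on none. The summed scaled signal of the list was 0.354, 0.830, 0.363 and 0.389 on the 4 arrays in that order, highest at 4 h, where Hspa2 was lowest and the Hspa1l signal highest, and its part in either was not tested.

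Among the HSP110 members, which act as exchange factors for HSP70, Hspa4 (Apg-2) gave the largest ratio of the family and the least uniform one. Probe A_55_P2054157 had intensities of 23699 in the control, 46072 at 4 h, 28483 at 20 h and 23075 at 32 h. Its scaled log2 signals were 4.42, 5.66, 4.35 and 4.20, so that 4 h stood apart and the control, 20 h and 32 h followed with neighboring gaps inside the spot error. The 4 h ratio was 1.24 ± 0.20 (2.36-fold), and 95.2% of all probes well above background on all arrays had this ratio or a lower one. With the other scalings it ran from 0.84 to 1.12 and was past 2-fold with 1 of those 5, the 75th percentile of the probes well above background on all arrays.

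The 2 downstream Hspa4 probes changed less. Probe A_55_P2061025 had scaled log2 signals of 0.21, 0.60, 0.51 and 0.57, and probe A_51_P200477 had 2.11, 2.35, 2.09 and 2.25, in the order control, 4 h, 20 h and 32 h. The 4 h ratios were 0.39 and 0.24 (each ± 0.20), and both changed sign among the scalings. The ratio of A_55_P2054157 exceeded theirs by 0.85 ± 0.29 and 1.0 ± 0.29, or 1.80-fold and 2.0-fold, differences that any scaling by a constant per array leaves unchanged. With quantile normalization, which is no constant, they were 0.47 and 0.74. The probe near the stop codon and those further downstream thus gave different 4 h ratios for the same gene, while the downstream pair, 247 bases apart, did not differ beyond error. At 20 h and 32 h, A_55_P2061025 was the Hspa4 probe above the control beyond the spot error, at 0.30 and 0.35, while A_55_P2054157 was at -0.067 and -0.22.

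Hspa4l (Apg-1), the closest relative of Hspa4, was the member with the largest ratios at the later hours. Its scaled log2 signals were 1.97 in the control, 1.81 at 4 h, 2.63 at 20 h and 2.71 at 32 h. The 20 h and 32 h arrays did not differ beyond the spot error, and both were above the control and 4 h arrays. The ratios to the control were -0.17 at 4 h, 0.66 at 20 h (1.58-fold) and 0.74 at 32 h (1.67-fold), each ± 0.20. The 4 h ratio was within the spot error with the scaling used and beyond it with the 5 others, at -0.57 to -0.25. At 20 h and 32 h, 97.6% and 97.7% of all probes well above background on all arrays had this ratio or a lower one. Over the 6 scalings the ratios stayed between 0.65 and 0.99 at 20 h and between 0.73 and 0.92 at 32 h. As no untreated array of those hours was used, the change cannot be told apart from time in culture.

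Hsph1 (Hsp105), the HSP110 member that is best known as heat-inducible, changed little. Probe A_55_P2176963 had scaled log2 signals of 4.56, 4.78, 4.74 and 4.84, and probe A_55_P2003513 had 3.07, 3.25, 3.22 and 3.27, in the order control, 4 h, 20 h and 32 h. The control was lowest and 32 h highest for both, with no gap between neighbors beyond the spot error. The 4 h ratios were 0.22 and 0.18, and both turned negative under some scalings (down to -0.18 and -0.22). At 32 h they were 0.27 and 0.20, above 0 under all 6 scalings.

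Hspa14 forms the ribosome-associated complex with the J-domain protein Dnajc2 and meets nascent chains at the ribosome. Its intensities were 12409 in the control, 6354 at 4 h, 15437 at 20 h and 13337 at 32 h. The scaled log2 signals were 3.49, 2.80, 3.47 and 3.41, so that 4 h alone stood apart from the other 3 arrays. The 4 h ratio was -0.68 ± 0.20 (1.61-fold lower), the lowest of the family, with a range of -1.09 to -0.68 over the scalings and past 2-fold with 2 of them. At 20 h and 32 h the ratios were -0.017 and -0.074, within the spot error. For Dnajc2, 1 probe had a 4 h ratio of 0.47 ± 0.20, and the other was well above background in the control but not at 4 h. This bounds it at 3.02-fold lower or more (log2 -1.59 ± 0.49), by a limit that other spots of that array set. It was not well above background later either, with bounds of -1.76 at 20 h and -1.38 at 32 h. With normexp background correction no partner probe, this one included, was 2-fold lower at 4 h.

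**Figure D2:**
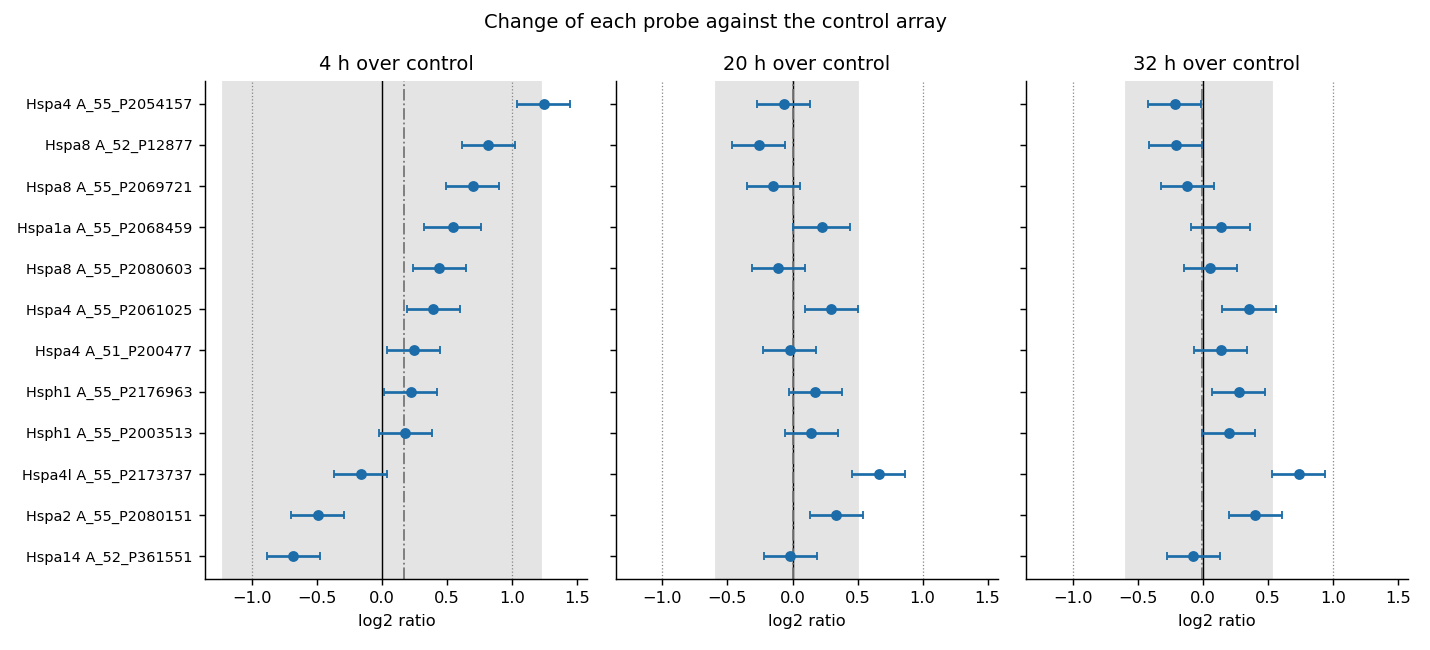
Log2 ratio to the control array (horizontal axis) of the 12 family probes well above background on all arrays, at 4 h, 20 h and 32 h, in the order of the 4 h ratios. Points carry the scanner spot error, the gray band holds the 5th to 95th percentile of all 19697 such probes, the dash-dot line is their median, and dotted lines mark 2-fold. Hspa4 A_55_P2054157 alone is past 2-fold at 4 h, and Hspa4l lies outside the band at 20 h and 32 h.

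At 20 h over control no family probe was past 2-fold in either direction, where 0.66% of all probes well above background on all arrays were higher and 1.73% lower. At 32 h over control the family count was again 0 both ways, against 1.01% higher and 1.49% lower. Beyond the spot error, 4 probes were above and 1 below at 20 h (Hspa4l, Hspa2, Hspa4 A_55_P2061025 and Hspa1a against Hspa8 A_52_P12877), and 4 above and 2 below at 32 h (Hspa4l, Hspa2, Hspa4 A_55_P2061025 and Hsph1 A_55_P2176963 against Hspa4 A_55_P2054157 and Hspa8 A_52_P12877). The share of all probes beyond the spot error was not counted at these hours either. The 5th to 95th percentile of all probes well above background on all arrays ran from -0.59 to 0.50 at 20 h and from -0.59 to 0.53 at 32 h. The family medians were 0.064 and 0.14, and those of all such probes 0.0021 and -0.0070.

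From 4 h to 20 h, the members again moved in different directions. With the scaling used, 3 of the 12 probes rose beyond the spot error, 6 fell and 3 were within it. The share of all probes beyond their spot error was not counted here either, so these counts do not set the family apart. The 5th to 95th percentile of all probes well above background on all arrays ran from -1.40 to 1.32. For 20 h over 4 h, 2 probes were at least 2-fold lower, Hspa4 A_55_P2054157 at -1.31 ± 0.20 (2.47-fold) and Hspa8 A_52_P12877 at -1.08 ± 0.20 (2.11-fold), where 10.7% of all probes were. None was at least 2-fold higher, where 9.44% were, and the highest were Hspa2 at 0.83, Hspa4l at 0.83 and Hspa14 at 0.67. These counts turn on the scaling. With median scaling, spike-in scaling or none, 3 probes were higher and 0 lower. The other Hspa8 probes were at -0.85 and -0.55, and both Hsph1 probes within the spot error, at -0.045 and -0.033. Between 20 h and 32 h, the hours sampled for circadian changes, the family differed least. The same held for all probes well above background on all arrays, whose 5th to 95th percentile ran from -0.32 to 0.28. All 12 family ratios of 20 h over 32 h lay between -0.17 and 0.15 and none was beyond the spot error. Of all such probes, 73.15% had a ratio no larger in size than the largest of the family, 0.17. The family count past 2-fold was 0 in both directions, against 0.183% higher and 0.315% lower among all probes.

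**Figure D3:**
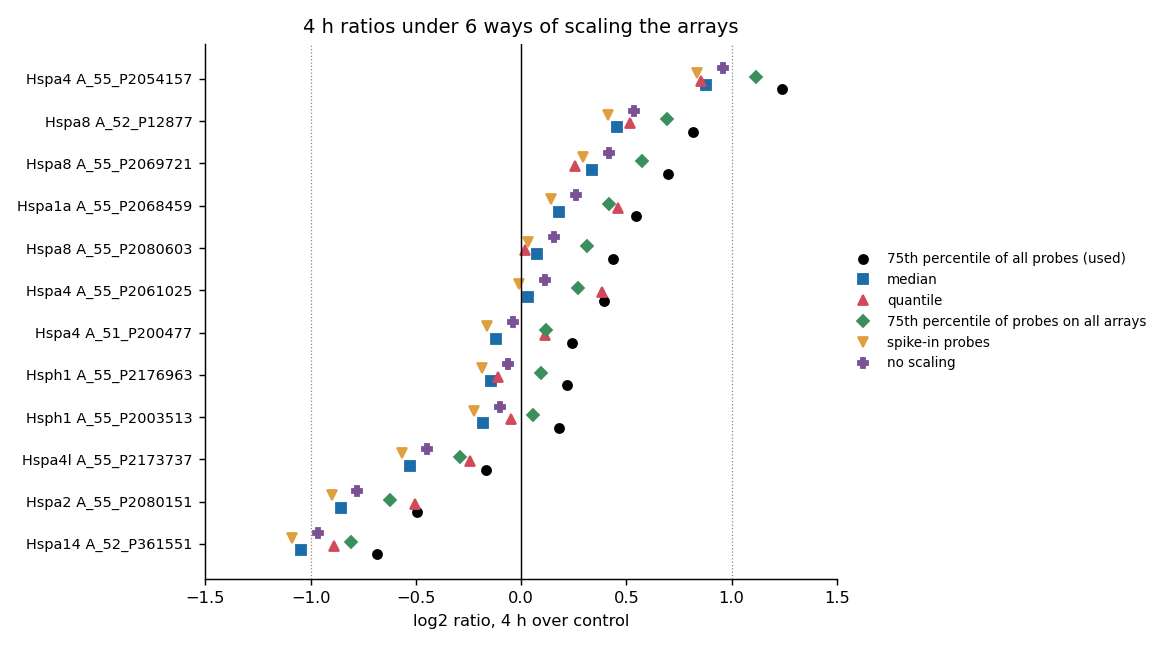
Log2 ratio of 4 h over control (horizontal axis) of the 12 family probes under 6 ways of scaling the arrays, with 1 symbol per scaling and dotted lines at 2-fold. Hspa8, Hspa1a and Hspa4 A_55_P2054157 stay above 0, Hspa4l, Hspa2 and Hspa14 stay below 0, and both Hsph1 probes and the downstream Hspa4 probes change sign. The other scalings by a constant lower every 4 h ratio, so those below 0 could not cross it under them.

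Under the 6 scalings, 8 of the 12 probes kept 1 direction at 4 h, 6 at 20 h and 10 at 32 h, each over the control. For 20 h over 4 h the count was 6, and for 20 h over 32 h it was 5. The share of all probes that kept 1 direction was not counted. At 4 h the other scalings by a constant lower every ratio, so those below the control could not turn under them. Over the control, the 5 other scalings shift the median of all probes by -0.014 to 0.33 at 20 h. At 32 h they shift it by -0.0098 to 0.18. Ratios above the control at these hours thus had little room to turn. The 8 at 4 h were the 3 Hspa8 probes, Hspa1a and Hspa4 A_55_P2054157 above the control and Hspa14, Hspa2 and Hspa4l below it.

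The partners of HSP70 were taken as 33 genes with 47 probes, of which 40 probes (30 genes) were well above background on all arrays. At 4 h, 8 of the 40 were at least 2-fold higher and 3 were lower, against the 8.42% and 8.07% of all such probes given above, with a median ratio of 0.49. At 20 h 1 probe, of Cryab, and at 32 h 0 were past 2-fold. Among the J-domain cochaperones, which deliver clients to HSP70, 4 of 16 probes were higher. They were 2 of the 4 Dnajb6 probes, A_52_P276935 and A_55_P2013188, at 1.88 ± 0.20 (3.67-fold each), Dnajb4 at 1.74 ± 0.21 (3.33-fold) and 1 Dnaja2 probe at 1.12 ± 0.20 (2.17-fold). The other Dnajb6 probes, A_52_P630493 and A_55_P1964076, were at 0.63 and 0.56 and not past 2-fold under any scaling. Lower was 1 Dnaja4 probe, at -1.19 ± 0.32. Dnajb1, a heat-inducible J-domain protein, had a ratio of 0.61. The ratios of Dnajb4 and of Dnajb6 A_52_P276935 and A_55_P2013188 were past 2-fold under all 6 scalings, and that of Dnaja2 with 1 of them.

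Of the 8 probes of BAG and HSPBP1 exchange factors none was 2-fold higher, and Bag4, a silencer of death receptor signaling, was at -1.02 ± 0.23. Bag3, which links HSP70 to small heat shock proteins, was at 0.68 ± 0.20. Of the other cochaperones (St13, Stip1 and Stub1) none of 3 was past 2-fold, with ratios from -0.35 to 0.76. HSP70 relatives in other compartments included Hspa5 (BiP of the endoplasmic reticulum) at 1.37 ± 0.20 (2.59-fold) and its exchange factor Hyou1 at 1.15 ± 0.33, 2 of 5 probes past 2-fold. Hspa5 was past 2-fold with 4 of the 6 scalings and Hyou1 with 2.

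Of the HSP90 pair, which takes over clients from HSP70, Hsp90aa1 was at 1.22 ± 0.20 (2.33-fold, past 2-fold with 2 of 6 scalings) and Hsp90ab1 at 0.68. Hsf1, Hsf2 and Hsbp1, the last a negative regulator of HSF1, were at 0.55, 0.057 and 0.32, none of 3 past 2-fold. Of 3 small heat shock protein probes, Hspb8, a partner of Bag3, was higher at 1.70 ± 0.20 (3.24-fold), whereas 1 Cryab probe was at -1.30 ± 0.29 and the other at -0.68. The lower partners, Dnaja4, Bag4 and the Cryab probe, were past 2-fold under all 6 scalings, but with normexp background correction no partner probe was 2-fold lower. The lists were chosen with earlier results of these data known.

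**Figure D4:**
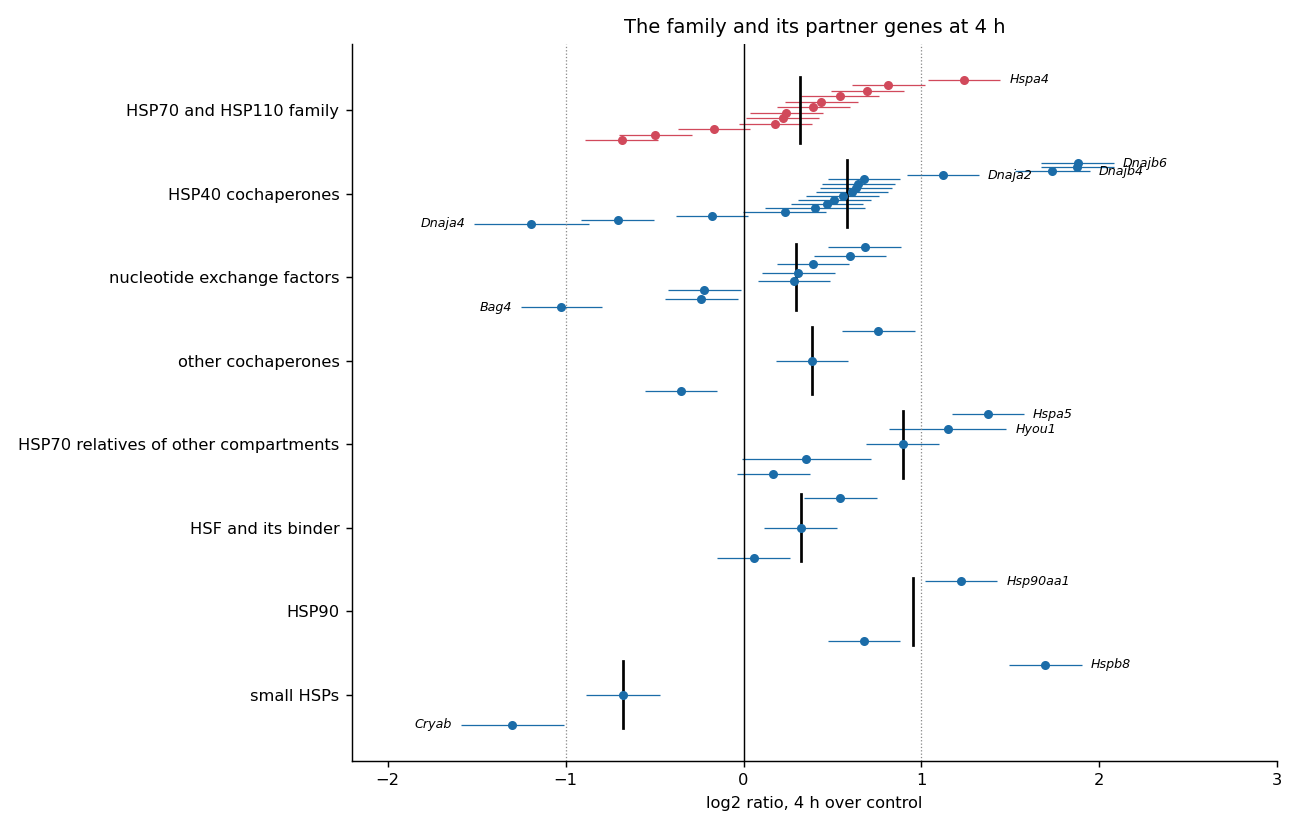
Log2 ratio of 4 h over control (horizontal axis) of the 12 family probes (red) and the 40 partner probes well above background on all arrays (blue), by list. Bars are the spot error, black ticks the median of each list, dotted lines mark 2-fold, and genes past 2-fold are named. The family has 1 probe past 2-fold and the J-domain cochaperones have 4 higher and 1 lower.

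Likeness to the family was measured as the root mean square difference of the log2 ratios at 4 h, 20 h and 32 h over the control, among 14959 named probes that all 4 arrays measured well above background. These 3 ratios share the control array. Nearest to Hspa4 A_55_P2054157, the probe with the largest 4 h ratio, were probes of Taf1d, Ahctf1, Creb1, Eif5 and Ino80, at 0.018 to 0.038, and 65 probes lay within 0.1. Nearest to Hspa8 A_55_P2080603, the brightest family probe, were 9030619P08Rik, 1700113A16Rik, Siglech, Zkscan6 and Ikzf3, at 0.012 to 0.023, with 409 probes within 0.1. These distances are below the spot error of a ratio, so that the order within each set of names carries no weight.

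The promoters were read from RefSeq for 8 of the 9 members (GRCm38.p6, 250 bases before to 50 after the annotated start), and Hspa8 had no entry. They were searched for GAANNTTC and TTCNNGAA, pairs of heat shock element blocks that read the same on both strands, and for the triples GAANNTTCNNGAA and TTCNNGAANNTTC, which contain these pairs. A pair was present in 15.1% of 32851 promoters and a triple in 0.603%. Hspa1a, Hspa1b and Hsph1 held a pair, and Hsph1 also held a triple. Hsph1 has 2 annotated starts, and the triple began at position 37 from the one used below and at position 16 from the other. No match was found in this window for Hspa1l, Hspa2, Hspa4, Hspa4l or Hspa14. The stretches around the pairs upstream of the start are printed to show the letters found in these members, with the matched letters in capitals. That of Hspa1a is chr17:34972227-34972286, that of Hspa1b is chr17:34959309-34959368 and that of Hsph1 is chr5:149636337-149636396, all on the minus strand.
Hspa1a: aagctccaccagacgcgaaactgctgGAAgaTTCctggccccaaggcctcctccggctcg
Hspa1b: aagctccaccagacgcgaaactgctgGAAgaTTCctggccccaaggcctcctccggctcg
Hsph1: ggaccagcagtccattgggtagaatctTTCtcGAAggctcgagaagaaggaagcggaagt
Counted from the start, the pair began at position -104 in Hspa1a and Hspa1b, whose promoters were equal at 296 of 300 bases, and at position -33 in Hsph1 (-54 from its other start). The measured members with such a pair, Hspa1a and Hsph1, had 4 h ratios of 0.54, 0.22 and 0.18, and those without a match here were at 1.24, 0.39 and 0.24 (Hspa4), -0.17 (Hspa4l), -0.50 (Hspa2) and -0.68 (Hspa14). A match of letters does not show binding, and a missing match says only that these letters are not in this window.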

How the data were processed

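The authors hybridized Cy3-labeled cRNA to Agilent 4x44K arrays and deposited, per the file headers, the intensity of each spot from Feature Extraction 10.7.3.1, background-subtracted and detrended. A second table, of scaled signals, held each array's intensities after division by a constant, as checked over 44397 spots (largest deviation 0.00012%). It was used as an alternative only. The paired SAM named in the methods could not be repeated with 1 array per group.

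From the intensities, log2 values of unflagged spots (125 to 161 spots per array were flagged) were averaged per probe, and each array's 75th percentile was taken off. A probe was well above background when at least 50% of its spots carried that flag. A ratio was measured when both arrays were, bounded when 1 was, and otherwise not taken. The number of arrays limits the precision. Over 224 probes with 10 spots each, the median SD of a single-spot 4 h log2 ratio was 0.055. Members, partner lists and cell markers were chosen with earlier results of these data known. The text names all members, partners with a probe past 2-fold at 4 h, single further partners chosen after their values were seen, and the 5 nearest probes in pattern. Alternatives covered scaling, normexp (offset 50, limma 3.58.1 in R 4.3.3), detection, flags and thresholds. The steps were tested on simulated data. Python 3.11.15, numpy 2.4.6 and pandas 2.3.3 were used. RefSeq entries of GRCm38.p6 gave promoters, and probe positions are those of the array design (mm9).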

Additional observations from a re-analysis of the deposited data

Results flagged for a closer look

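Of the 12 family probes, 2 lay on opposite sides of the control at 4 h and at both later hours, each beyond the spot error. The share of all probes that meet this rule was not counted, so the count does not set the family apart. Hspa2 was at -0.50 at 4 h and at 0.34 and 0.40 at 20 h and 32 h (log2 ratio), signs that held under the 6 scalings. The other scalings by a constant only lower the 4 h ratio, so its sign there could not turn under them. Hspa8 A_52_P12877 was at 0.81 at 4 h and at -0.26 and -0.21 later, and its 20 h ratio was 0.071 without scaling. With 1 array per group the difference between hours was not tested, and the 3 ratios share the control array.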

How the results depend on the processing

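The count of family probes at least 2-fold higher at 4 h, 1 as reported, was 0 with median, quantile, spike-in or no scaling and at 3-fold, 3 at 1.5-fold, and 2 without a detection filter, in the deposited table or with the flag for positive and significant signals, the additional probe being Hspa1l. The count lower at 4 h, 0 as reported, was 1 (Hspa14) with median or spike-in scaling and at 1.5-fold. At 1.5-fold, 1 probe (Hspa4l) was higher at 20 h and 1 at 32 h. For 20 h over 4 h, the count higher, 0 as reported, was 3 with median, spike-in or no scaling and at 1.5-fold. The count lower, 2 as reported, was 0 with median, quantile, spike-in or no scaling and at 3-fold. It was 1 with the 75th percentile of probes on all arrays or with 1 probe per gene. It was 3 without a detection filter, in the deposited table, with the flag for positive and significant signals or at 1.5-fold. The family median at 4 h, 0.32 as reported, was -0.045 with median scaling, 0.066 with quantile normalization, -0.086 with spike-in scaling and 0.036 without scaling. For 20 h over 4 h, -0.18 as reported, it was 0.29, 0.42 and 0.43 with median, spike-in and no scaling, and at 20 h, 0.064 as reported, it was 0.40 without scaling. Spike-in scaling without the 1 spike-in probe farthest from the others, added after seeing the data, gave the same counts as spike-in scaling with it and medians of -0.080 at 4 h and 0.29 for 20 h over 4 h. In total 39 of 210 recomputed counts and medians moved, among them the changes of sign given here. A count moved when it changed from or to 0 or by more than 1.5-fold. A median moved when it shifted by at least the median spot error of the ratios. Some counts were 0 under every setting, among them all those of 20 h over 32 h. The total therefore does not measure how far the results depend on the processing. Partner probes 2-fold higher at 4 h numbered 4 to 7 with the other scalings against 8 as reported, 17 at 1.5-fold, and the 4 lower, a bound included, became 0 with normexp. No paired analysis was possible because each group had 1 array, and for the same reason no replicate could be left out. The spread between cultures is unknown, and Hspa1l lies at the limit of the signal over background.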

Other observations

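Among the partners, 8 genes had more than 1 probe well above background on all arrays, and Dnajb6 showed the widest gap between its probes at 4 h. A_52_P276935 at chr5:30112861-30112920 (mm9, plus strand) was at 1.88 and A_55_P1964076 at chr5:30080099-30080158 at 0.56, a difference of 1.32 ± 0.29 over 32762 bases. For Cryab the 2 probes, 3108 bases apart, differed by 0.62 ± 0.36, for Dnaja2 by 0.48 ± 0.29 over 1109 bases and for Dnajb2 by 0.41 ± 0.31. The probes of Dnaja1, Bag1, Bag5 and Hspa13 did not differ beyond their spot error. These genes were chosen after their values were seen.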
